A study of Mus musculus with 8 samples.

Results

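The glucocorticoid receptor gene Nr3c1, the receptor's 2 FK506-binding co-chaperone genes Fkbp4 and Fkbp5, and 6 further genes known to be induced by the receptor (Tsc22d3, Per1, Klf9, Sgk1, Anxa1 and Errfi1) were examined in J774A.1 cells, a mouse macrophage line. These 9 genes were taken by symbol from a table of 55487 genes. The control cells received LPS (lipopolysaccharide of the outer membrane of bacteria, which activates these cells, 1 μg/mL) for 24 h, and the others received LPS (1 μg/mL) together with UDCA (ursodeoxycholic acid, a secondary bile acid, 1 mM) for 24 h, with 4 libraries in each group. All libraries therefore carry LPS, and all cells were grown in medium with serum. Cells without LPS or with a glucocorticoid were not analysed here. The question was whether the cells given UDCA showed the expression changes that follow activation of the glucocorticoid receptor.

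The glucocorticoid receptor is a nuclear receptor that waits in the cytoplasm in a complex with the chaperone Hsp90, the small co-chaperone p23 and an immunophilin. After binding a glucocorticoid it moves to the nucleus, where it induces genes by binding palindromic DNA elements and restrains genes driven by NF-κB and AP-1. In macrophages this receptor is best known for lowering cytokine, chemokine and nitric oxide synthase expression while raising feedback genes such as Tsc22d3 (GILZ), Fkbp5, Per1 and Anxa1.

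Levels are in TPM (a transcript abundance in which the reads of a gene are divided by its length and scaled within a library), so levels of different genes can be compared. The deposited values summed to between 973190 and 977485 per LPS library and between 958918 and 962737 per LPS + UDCA library. Since TPM holds no read number, the depth and the counting error are unknown. Differences are log2 fold changes of TPM + 1 from limma, LPS + UDCA over LPS, which understate the change of genes of a few TPM. A gene was called at a Benjamini-Hochberg FDR under 0.05 over the 11796 genes that averaged 1 TPM or more. A stricter rule, with the thresholds of the study's methods, also required a fold change of TPM + 1 of at least 2. The study did not state how its fold changes were computed, so its own calls can differ. The labels number the libraries but do not say whether they came from separate cultures, so the p-values measure only the spread between these libraries, which may be technical. All 10 macrophage markers were present, at 15.25 TPM or more in every library, and 19 of 21 markers of other cell types averaged under 1 TPM, 6 of them at 0 in all libraries. Of the macrophage markers, 4 rose and 6 fell, against 40.2% and 32.3% of all genes tested, the lowest log2 fold changes being those of Itgam, Lyz2 and Cd68 (-2.91, -2.19 and -1.39) and the highest those of Fcgr1 and Adgre1 (1.48 and 1.27). Their summed TPM moved with the treatment, from 4825–5116 with LPS to 2519–2840 with LPS + UDCA, and that of the other markers from 19.9–26.5 to 2.81–9.40. Of the latter, S100a8 and S100a9, calcium-binding proteins of myeloid cells, were the 2 that passed the minimum, and both fell. S100a9 (log2 fold change -1.27) passed it only through the LPS libraries. Whether these shifts have a part in the results was not tested, and in bulk RNA fewer cells of a type cannot be told apart from less RNA per cell.

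All 9 genes passed the minimum of 1 TPM, and they did not move one way. With UDCA, Nr3c1, Anxa1, Klf9 and Per1 rose, Fkbp5 and Errfi1 fell, and Fkbp4, Tsc22d3 and Sgk1 did not pass the test. The 4 genes called higher compare with 40.2% of all genes tested called higher, and the 2 called lower with 32.3% called lower. In either direction, 6 of 9 were called, against 72.5% of all genes tested, so the panel was called about as often as other genes. By the stricter rule only Fkbp5 was called, against 17.1% of genes tested in either direction (8.71% higher and 8.44% lower). The 4 + 4 libraries did not overlap for 7 of the 9 genes, against 66.8% of all genes (37.0% with LPS + UDCA on the upper side and 29.9% on the lower). Over the 9 genes the median log2 fold change was 0.07, and over all genes tested 0.08. Counting only the 7 genes that glucocorticoids induce, which leaves out Nr3c1 and Fkbp4, 3 rose, 2 fell and 2 did not pass the test.

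**Figure D1:**
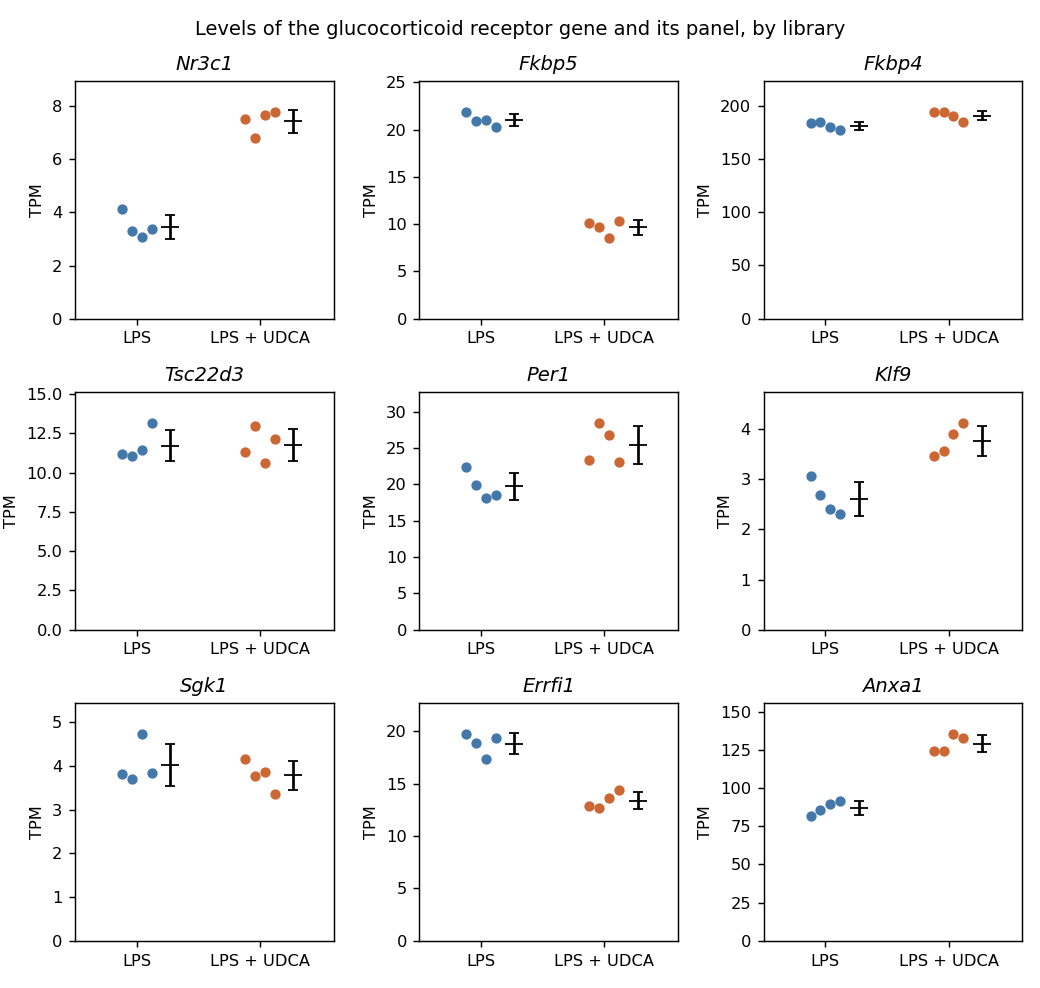
Level of each of the 9 genes in TPM (vertical axes, each from 0) in the 4 LPS (blue) and 4 LPS + UDCA (orange) libraries, with the mean and SD in black beside the points. The groups are apart for Nr3c1, Fkbp5, Fkbp4, Per1, Klf9, Errfi1 and Anxa1, and overlap for Tsc22d3 and Sgk1.

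**Figure D2:**
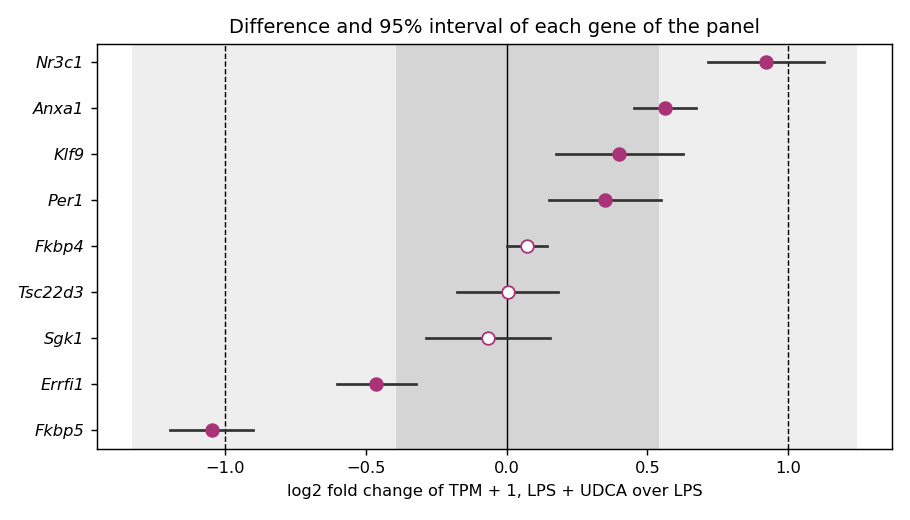
Log2 fold change of TPM + 1 (horizontal axis, LPS + UDCA over LPS) of each of the 9 genes with its 95% interval from limma. Filled points passed an FDR of 0.05 and open points did not, dashed lines mark a 2-fold change, and the dark and light bands hold the middle 50% and 90% of all 11796 genes tested. The 9 genes run from -1.05 for Fkbp5 to 0.92 for Nr3c1.

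The receptor gene itself was low and rose. Nr3c1 lies on chromosome 18 from 39410545 to 39519421 (GRCm38) on the minus strand. Its level was 4.11, 3.29, 3.07 and 3.39 TPM in LPS replicates 1 to 4, and 7.51, 6.81, 7.65 and 7.78 TPM in LPS + UDCA replicates 1 to 4. Every LPS + UDCA library lay above every LPS library. The group means were 3.46 ± 0.450 and 7.44 ± 0.433 TPM (SD, n = 4), a ratio of 2.15. On the log2 scale of TPM + 1 the difference was 0.92 (limma, standard error 0.091, adjusted p = 1.5e-05), short of the 2-fold minimum. With a pseudocount of 0.1 in place of 1 it was 1.09, past that minimum. Over all 70 arrangements of the libraries, Nr3c1 had a 2-sided p of 0.029 in the exact permutation test, the smallest this design allows, as had each of the 7 genes whose groups did not overlap.

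The 2 immunophilins that compete for the receptor complex differed. Fkbp5 encodes FKBP51, which holds the receptor in a state of low hormone affinity and is itself a classical glucocorticoid-induced gene. Its gene is on chromosome 17, from 28399094 to 28517527 on the minus strand. Its level was 21.85, 20.91, 21.03 and 20.25 TPM in the LPS libraries and 10.12, 9.66, 8.58 and 10.29 TPM in the LPS + UDCA libraries. It fell in every library, from 21.0 ± 0.657 to 9.66 ± 0.769 TPM (SD, n = 4), a ratio of 0.460. This was a log2 fold change of -1.05 (limma, standard error 0.065, adjusted p = 7.7e-07). Without LPS + UDCA replicate 3, the lowest library, it was -0.998, just short of 2-fold, and 0 of the 9 genes were then called by the stricter rule.

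Fkbp4 encodes FKBP52, which links the receptor to the dynein motor and favours hormone binding. Located on chromosome 6 from 128429735 to 128438677 on the minus strand, it had the highest level of the panel. The LPS libraries had 183.89, 184.2, 179.82 and 176.56 TPM, and the LPS + UDCA libraries 193.52, 193.88, 190.19 and 184.82 TPM. The groups were apart by a narrow margin, with means of 181 ± 3.64 and 191 ± 4.20 TPM (SD, n = 4). The log2 fold change was 0.07 with a 95% interval from 0.0031 to 0.14 (adjusted p = 0.058 from limma), and its sign turned to -0.0055 with median-of-ratios scaling. Fkbp5 stood at 11.6 ± 0.236% of the level of Fkbp4 with LPS and at 5.07 ± 0.445% with LPS + UDCA (SD, n = 4, exact permutation test, 2-sided p = 0.029). This ratio was chosen after the values of both genes had been seen.

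Among the 14 genes for FK506-binding proteins, peptidyl-prolyl isomerases that share a fold with both co-chaperones, 11 were tested. Of these, 8 fell and 1 rose, against 32.3% and 40.2% of all genes tested, and the list had a median of -0.76 on the log2 scale. Fkbp1b, a partner of calcium release channels, had the lowest log2 fold change, -2.13, from 5.30 ± 0.940 to 0.455 ± 0.346 TPM (SD, n = 4), and passed the minimum of 1 TPM only through the LPS libraries. The endoplasmic reticulum member Fkbp11 fell from 62.7 ± 3.32 to 26.4 ± 3.52 TPM. Fkbp5 was the only other member past the stricter rule, and Fkbp5 fell along with most of its relatives.

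The other chaperones of the receptor complex mostly rose. Of 16 listed chaperone and co-chaperone genes, 15 were tested, and 11 rose and 4 fell, against 40.2% and 32.3% of all genes. Their median log2 fold change was 0.81, and their summed level went from 4674–4918 TPM in the LPS libraries to 9765–11855 TPM in the LPS + UDCA libraries. The inducible Hsp90 gene Hsp90aa1 rose from 157 ± 18.9 to 496 ± 80.8 TPM (SD, n = 4, log2 fold change 1.65), and the constitutive Hsp90ab1 from 1638 ± 51.7 to 2876 ± 110 TPM (log2 fold change 0.81). Hspa8, the constitutive Hsp70 that starts the folding of the receptor, rose from 1446 ± 40.3 to 5440 ± 668 TPM. Ptges3, which encodes p23, rose from 112 ± 3.80 to 196 ± 19.3 TPM. The inducible Hsp70 gene Hspa1b had the highest log2 fold change of the list, 2.88 (limma, standard error 0.19, adjusted p = 9.7e-07). Its near-identical copy Hspa1a, named after its values had been seen, was listed at 0.44 TPM or less, so the split of reads between the 2 is uncertain. The 4 that fell, none past the stricter rule, were the phosphatase gene Ppp5c, the Hsp70 partners Bag1 and Stub1, and the kinase co-chaperone Cdc37 (log2 fold changes -0.81, -0.69, -0.64 and -0.25), and these 4 were named after their values had been seen.

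The receptor's coregulators moved both ways. Of 13 listed genes, 7 rose and 5 fell, against 40.2% and 32.3% of all genes tested, with a median log2 fold change of 0.53. The acetyltransferase gene Crebbp rose from 4.26 ± 0.596 to 11.97 ± 0.553 TPM (SD, n = 4) and was the only one past the stricter rule. With a pseudocount of 0.1 in place of 1, 3 coregulator genes were called higher by that rule. The p160 coactivator genes Ncoa1 and Ncoa2 rose, with log2 fold changes of 0.53 and 0.88. The corepressor gene Ncor1 also rose (log2 fold change 0.55). Of genes for steroid handling, Nr3c2 (the mineralocorticoid receptor) and Hsd11b1 (the enzyme that regenerates active glucocorticoid in cells) were at 0.19 and 0.32 TPM or less in all libraries. Of the 8 listed steroid handling genes 3 were tested, and their median log2 fold change was -0.61. H6pd, which supplies the cofactor of that enzyme, rose from 7.17 ± 1.00 to 9.93 ± 0.566 TPM. Por, the electron donor of microsomal P450 enzymes, and Abcb1b, a drug and steroid exporter, fell (log2 fold changes -0.61 and -0.65, named after their values had been seen).

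Among the induced genes that act in the nucleus, Tsc22d3 is the one most tied to the anti-inflammatory action of glucocorticoids in macrophages, since its product GILZ binds NF-κB and AP-1. The gene is on chromosome X, from 140539528 to 140600659 on the minus strand. Its level was 11.17, 11.07, 11.46 and 13.14 TPM under LPS alone and 11.3, 12.94, 10.59 and 12.14 TPM under LPS + UDCA. The groups overlapped across their whole range, with means of 11.7 ± 0.968 and 11.7 ± 1.02 TPM (SD, n = 4). Tsc22d3 had a log2 fold change of 0.0032, with a 95% interval from -0.18 to 0.18 (adjusted p = 0.97 from limma, 2-sided p = 0.97 from the exact permutation test), and its sign changed with the scaling. A rise of Tsc22d3 to 2-fold lies outside this interval. Of its 3 relatives in the TSC22 domain family, Tsc22d1 and Tsc22d4 fell (log2 fold changes -0.65 and -0.47), and Tsc22d2 rose from 7.63 ± 1.04 to 16.0 ± 1.71 TPM (log2 fold change 0.98, named after its value had been seen).

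Per1, a circadian repressor whose promoter also answers to cAMP, rose modestly. Its position is chromosome 11, from 69095217 to 69109960 on the plus strand. The LPS libraries had 22.35, 19.84, 18.18 and 18.49 TPM, and the LPS + UDCA libraries 23.34, 28.4, 26.8 and 23.11 TPM. The lowest LPS + UDCA library lay above the highest LPS library by less than 1 TPM. The means were 19.7 ± 1.90 and 25.4 ± 2.61 TPM (SD, n = 4), a log2 fold change of 0.35 (limma, standard error 0.088, adjusted p = 0.0055). Of the 12 clock genes tested, Per1 included, 8 rose and 3 fell, against 40.2% and 32.3% of all genes tested. The largest rise was that of Nr1d2, a nuclear receptor that represses the clock activator, from 1.53 ± 0.337 to 11.4 ± 1.07 TPM (log2 fold change 2.30). Tef and Clock also passed the stricter rule, with log2 fold changes of 1.36 and 1.17. The repressor genes Cry1 and Nr1d1 fell, by 0.50 and 0.29 on the log2 scale. Of the 8 rises, only that of Cry2 was smaller than that of Per1 (0.29 on the log2 scale, named after its value had been seen).

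Klf9, a Kruppel-like repressor that many cell types induce within the first hours of glucocorticoid exposure, had the lowest level of the panel with LPS. It lies on chromosome 19 from 23141226 to 23168134 on the plus strand. Its level was 3.06, 2.69, 2.4 and 2.31 TPM under LPS alone and 3.47, 3.56, 3.91 and 4.12 TPM under LPS + UDCA. The groups did not overlap, and the means were 2.62 ± 0.338 and 3.77 ± 0.303 TPM (SD, n = 4). Klf9 thus differed by 0.40 on the log2 scale (limma, standard error 0.10, adjusted p = 0.0054). Of 10 Kruppel-like factor genes tested, 6 rose and 2 fell, against 40.2% and 32.3% of all genes tested. Klf11 went from 0.813 ± 0.306 to 3.11 ± 0.313 TPM, but it passed the minimum of 1 TPM only through the LPS + UDCA libraries and was no longer tested where every library had to reach it. Klf10 rose with a log2 fold change of 0.71. Klf2, which restrains macrophage activation, fell from 54.0 ± 2.38 to 24.9 ± 3.86 TPM (log2 fold change -1.10). Klf4 and Klf6 did not pass the test (log2 fold changes -0.06 and -0.09).

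Sgk1 encodes a kinase of the AKT type that was named for its induction by serum and glucocorticoids. Sgk1 is on chromosome 10, from 21882184 to 21999903 on the plus strand. Its level was 3.82, 3.7, 4.72 and 3.83 TPM under LPS alone and 4.15, 3.76, 3.87 and 3.35 TPM under LPS + UDCA. The groups overlapped, with means of 4.02 ± 0.472 and 3.78 ± 0.332 TPM (SD, n = 4). The log2 fold change was -0.07, with a 95% interval from -0.29 to 0.15 (adjusted p = 0.55 from limma, 2-sided p = 0.49 from the exact permutation test). Its relative Sgk3, which shares many substrates, rose from 3.26 ± 0.215 to 5.60 ± 0.965 TPM (log2 fold change 0.62). Of the 9 genes tested for SGK kinases and their partners, 7 rose, against 40.2% of all genes tested, and by the stricter rule Rictor, the scaffold of mTORC2, was called with a pseudocount of 0.1 but not with 1 (2.42 ± 0.351 and 4.99 ± 0.539 TPM, named after its values had been seen). Sgk1 and Mapkap1, another subunit of this complex, which phosphorylates SGK kinases, did not pass the test. Mapkap1 was named after its values had been seen.

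The receptor binds a palindrome of the arms AGAACA and TGTTCT with 3 bases between them. RefSeq promoter stretches (GRCm38.p6, 250 bases before to 50 after a RefSeq start) of 8 of the 9 genes were searched for it on both strands. A single stretch was used per gene. Those of Tsc22d3 (chrX:140542619-140542918), Fkbp5 (chr17:28486100-28486399), Per1 (chr11:69098699-69098998) and Anxa1 (chr19:20390622-20390921) lay inside the gene, away from the GENCODE gene start. That of Errfi1 (chr4:150853546-150853845) ended before the GENCODE gene start. The whole palindrome was in 0 of the 8, and in 0.0037% of all 27025 promoters. At so low a share, its absence from the 8 could not set them apart from other genes. Variants of these letters were not searched. A single arm of 6 bases was in 1 of the 8, against 19.0% of all promoters, and that promoter was of Sgk1. It is shown because it was the sole match, with the arm in capitals, its first base 195 bases before the start, in the 60 bases at chr10:21881962-21882021 on the plus strand.
Sgk1: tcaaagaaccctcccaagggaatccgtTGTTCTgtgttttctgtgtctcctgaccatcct
The gene beside it did not pass the test. The match is only a match of letters, and the windows of the other genes say nothing of elements farther away.

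Errfi1 encodes MIG6, an inhibitor that binds EGF receptor family kinases and ends their signal. Errfi1 is on chromosome 4, from 150853919 to 150868892 on the plus strand. The LPS libraries had 19.69, 18.86, 17.35 and 19.32 TPM, and the LPS + UDCA libraries 12.81, 12.68, 13.61 and 14.37 TPM. Every LPS + UDCA library was lower, and the means fell from 18.8 ± 1.03 to 13.4 ± 0.785 TPM (SD, n = 4), a ratio of 0.711. Errfi1 had a log2 fold change of -0.46 (limma, standard error 0.062, adjusted p = 0.00012). Of its targets, Egfr was at 0.01 TPM or less in all libraries, and Erbb2 and Erbb4 were at 0 in all, while Erbb3, the remaining receptor of the family, fell from 7.01 ± 0.891 to 5.60 ± 0.513 TPM (SD, n = 4, log2 fold change -0.28), and these 4 were named after their values had been seen. In the list of EGF receptor family and feedback genes, 7 of 16 were tested, and 5 fell and 1 rose, against 32.3% and 40.2% of all genes tested. The growth factor gene Hbegf went from 2.57 ± 0.203 to 0.435 ± 0.209 TPM (log2 fold change -1.33), but it passed the minimum of 1 TPM only through the LPS libraries. The feedback gene Spry2 fell from 6.87 ± 0.588 to 2.86 ± 0.278 TPM (log2 fold change -1.03).

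Anxa1 encodes annexin A1, a phospholipid-binding protein that glucocorticoids raise in phagocytes and that dampens inflammation through formyl peptide receptors. It lies on chromosome 19 from 20373428 to 20390944 on the minus strand. Its level was 81.48, 85.66, 89.64 and 91.39 TPM under LPS alone and 123.97, 124.32, 135.19 and 132.67 TPM under LPS + UDCA. The groups lay far apart relative to their spread, with means of 87.0 ± 4.42 and 129 ± 5.74 TPM (SD, n = 4), a ratio of 1.48. Anxa1 differed by 0.56 on the log2 scale (limma, standard error 0.048, adjusted p = 6.2e-06). The receptor genes for its signal were scarcely present, Fpr1 at 0.10 TPM or less and Fpr2 at 0.49 TPM or less in every library. Among the annexins and their S100 partners, 3 genes rose and 7 fell of 11 tested, against 40.2% and 32.3% of all genes tested. Anxa4 rose from 97.9 ± 0.975 to 211 ± 13.0 TPM (log2 fold change 1.09), while Anxa2 and its partner S100a10, which form a complex at the cell surface, fell by 0.44 and 0.65 on the log2 scale.

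**Figure D3:**
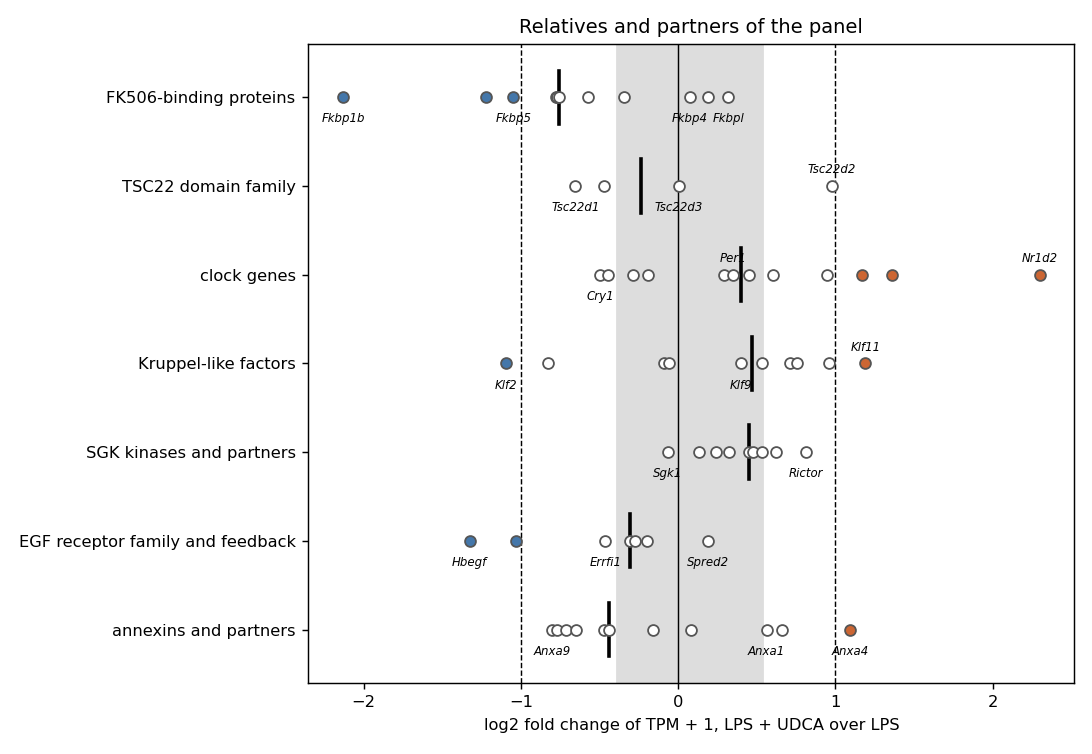
Log2 fold change of TPM + 1 (horizontal axis, LPS + UDCA over LPS) of the tested relatives and partners of the panel, 1 row per list. Orange and blue points passed a fold change of 2 and an FDR of 0.05 in the higher and lower direction, open points did not, black bars mark the median of a list, and the grey band holds the middle 50% of all genes tested. FK506-binding proteins lie mostly to the left (median -0.76), and each list holds genes on both sides of 0.

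The order of the levels within the panel changed. With LPS it ran Fkbp4, Anxa1, Fkbp5, Per1, Errfi1, Tsc22d3, Sgk1, Nr3c1 and Klf9 from high to low, and the ranges of neighbours overlapped for Fkbp5 and Per1, for Per1 and Errfi1, and for Sgk1 and Nr3c1. With LPS + UDCA it ran Fkbp4, Anxa1, Per1, Errfi1, Tsc22d3, Fkbp5, Nr3c1, Sgk1 and Klf9, and the ranges of neighbours overlapped for Errfi1 and Tsc22d3 and for Sgk1 and Klf9. Fkbp5 thus moved from the third to the sixth place.

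Beyond the panel, 22 further genes known as glucocorticoid-induced were examined, of which 12 were tested. At an FDR under 0.05, 6 rose, 3 fell and 3 did not pass, against 40.2% and 32.3% of all genes tested that rose and fell, and by the stricter rule 5 rose and 1 fell, against 8.71% and 8.44% of all genes tested. Their median log2 fold change was 0.28. The metallothionein genes Mt2 and Mt1, which answer to metals as well as to glucocorticoids, had the highest log2 fold changes, 4.31 and 2.54, and Mt2 overlaps the antisense gene Gm45774, from which its reads cannot be told apart without strand. Mt1 rose from 288 ± 2.71 to 1675 ± 80.7 TPM (SD, n = 4). Ddit4, an inhibitor of mTORC1 that stress also induces, rose from 61.0 ± 3.57 to 149 ± 2.09 TPM (log2 fold change 1.28). Cebpd, a transcription factor of the acute phase response, fell from 95.6 ± 2.66 to 45.6 ± 9.24 TPM, and its log2 fold change of -1.07 no longer passed 2-fold without LPS + UDCA replicate 4.

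Of 3 feedback genes through which glucocorticoids act on inflammatory signals, none was called higher, against 40.2% of all genes tested. These 3 belong to the same list of further induced genes, in which 6 of 12 tested genes rose. Dusp1, the phosphatase of p38 and JNK, had 61.5 ± 2.61 TPM under LPS alone and 59.5 ± 5.70 TPM under LPS + UDCA (log2 fold change -0.05, adjusted p = 0.52 from limma). Nfkbia, which encodes the NF-κB inhibitor IκBα, fell from 427 ± 6.52 to 359 ± 25.3 TPM. Zfp36, which encodes the mRNA decay factor tristetraprolin, fell from 445 ± 4.08 to 346 ± 27.4 TPM (log2 fold changes -0.25 and -0.36). The 10 genes that were not tested averaged under 1 TPM, and 7 of them were at 0 in all libraries, among them the macrophage glucocorticoid markers Cd163 and Mertk. The decoy receptor gene Il1r2 and the transcription factor gene Zbtb16 were also at 0 in all, and these 4 were named after their values had been seen.

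Genes that glucocorticoids lower in LPS-treated macrophages were mostly lower with UDCA. Of 17 listed, 14 were tested, and 11 fell and 3 rose, against 32.3% and 40.2% of all genes tested, with a median log2 fold change of -0.74. By the stricter rule 6 fell and 2 rose, against 8.44% and 8.71%. Nos2, the inducible nitric oxide synthase gene, fell from 293 ± 7.53 to 75.8 ± 4.16 TPM (SD, n = 4, log2 fold change -1.94), and Ccl2 and Tnf fell with log2 fold changes of -3.65 and -1.69. The genes that rose past 2-fold were Il6, from 95.8 ± 7.67 to 241 ± 20.3 TPM, and the protease gene Mmp9, from 0.513 ± 0.156 to 3.57 ± 0.562 TPM, which passed the minimum only through the LPS + UDCA libraries. For Il6 the study reported the opposite direction. Its PCR in this cell line had UDCA suppressing the LPS-induced expression at 24 h. The reason for this difference was not tested. Several inflammatory genes of the list were already singled out in the study from these same libraries, so the direction of the list is not independent evidence. The panel thus held induced genes in both directions beside a list of lowered genes that mostly fell.

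**Figure D4:**
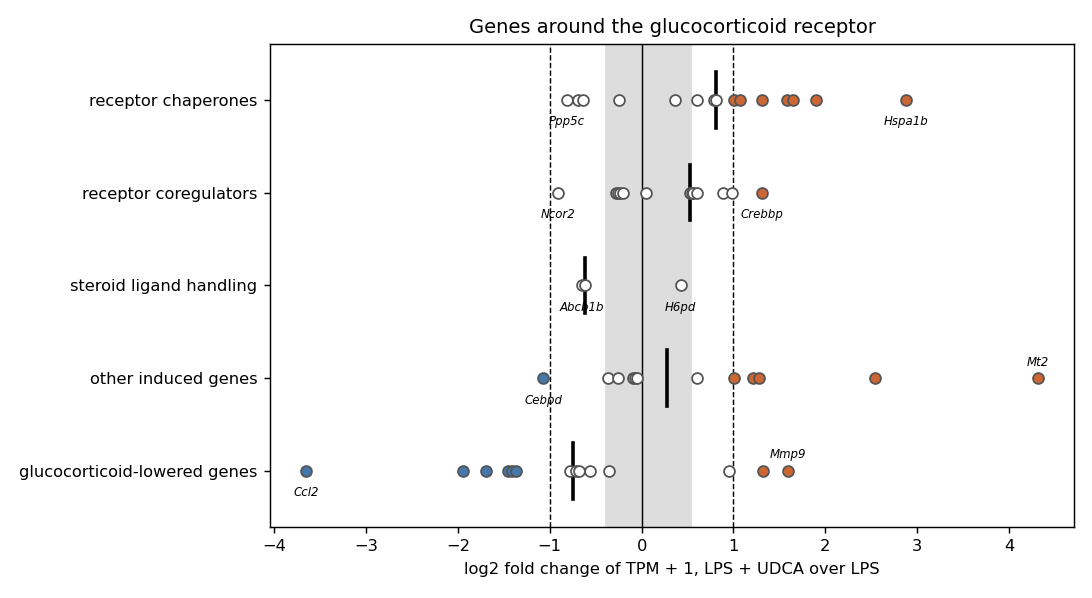
Log2 fold change of TPM + 1 (horizontal axis, LPS + UDCA over LPS) of tested genes around the glucocorticoid receptor, 1 row per list, with marks as in the plot of relatives and partners. Receptor chaperones lie mostly to the right (median 0.81) and glucocorticoid-lowered genes mostly to the left (median -0.74), while other induced genes run from Cebpd at -1.07 to Mt2 at 4.31.

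Across the 8 libraries, on log2(TPM + 1), the genes whose pattern was most like that of Nr3c1 were Scaf11, Socs4 and Crkl (Pearson's r of 0.998, 0.998 and 0.997), and the most opposite were Polr1e, Mrpl17 and Car5b (-0.996, -0.995 and -0.995). These values carry the difference between the groups, since the 8 points are 2 sets of 4, and 3575 genes had an absolute r of 0.95 or more. Scaf11, which encodes a splicing-related protein, had 12.02 to 16.25 TPM in the LPS libraries and 24.62 to 28.49 TPM in the LPS + UDCA libraries. Within the panel, r with Nr3c1 ran from -0.963 for Fkbp5 to 0.948 for Klf9.

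Reads of the 9 genes could be shared with few other genes. In GENCODE M21, between 0 and 3.01% of the 31-base words of their transcripts occur in another gene, the highest share being that of Fkbp4. Errfi1, Anxa1, Klf9 and Fkbp5 overlap other annotated genes, and those of them that the table lists stood at 0 TPM in all libraries.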

How the data were processed

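RNA from 8 J774A.1 libraries, 4 given LPS and 4 given LPS + UDCA, was sequenced by the study on an Illumina instrument after TruSeq library preparation. The authors deposited 1 table of TPM per gene and library, kept to 2 decimals, a unit inferred from the column sums. The submitters' processing notes name Bowtie 0.12.2 and the builds mm10 and GRCm38. The counting program and the use of strand are not given in the sources used here. Libraries were grouped by their labels.

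Genes that averaged 1 TPM or more were analysed as log2(TPM + 1) with limma 3.58.1 (R 4.3.3), using lmFit and then eBayes, whose prior variance followed the mean, and no replicate block, and p-values were adjusted by Benjamini-Hochberg over all 11796 genes. The fit was tested on simulated data. An exact 2-sided permutation test over 70 arrangements was added for single genes. Positions are from GENCODE M21 on GRCm38, and promoters from RefSeq on GRCm38.p6. Python 3.11.15 with pandas 2.3.3 and matplotlib 3.10.9 made the tables and figures.

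The 9 genes and all gene lists were chosen with earlier results of these data known, and the lists were compiled by hand from general knowledge. Named genes were the 9, the 3 highest and the 3 lowest of each list past both thresholds, chosen partners and close relatives, and the 3 genes most and least like Nr3c1. Genes named outside this rule are said to be so. Alternatives changed the scaling, the pseudocount, the low-value filter, the thresholds and the variance trend, added the replicate block, or left out each library.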

Additional observations from a re-analysis of the deposited data

Results flagged for a closer look

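Dixon's ratio, the distance of the most extreme of 4 libraries from the next over the span of all 4, was compared with its 95% critical value. For the 9 genes, 1 of 18 groups passed it, where chance gives about 0.9. In that group LPS replicate 3 was highest for Sgk1, at 4.72 TPM (ratio 0.873). Without this library the log2 fold change of Sgk1 was -0.0028 in place of -0.07, and in neither case did it pass the test.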

How the results depend on the processing

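The 6 genes of the panel called at an FDR under 0.05 kept their direction and their call in all alternatives that were run. Tsc22d3 had no stable sign, with a log2 fold change of -0.0697 with median-of-ratios scaling, -0.083 with quantile normalization, and -0.041 to 0.055 with 1 library left out. Fkbp4 was -0.0055 with median-of-ratios scaling, and it was called with quantile normalization (0.13), without a filter on low values (0.0732) and without LPS + UDCA replicate 4, its range with 1 library left out being 0.061 to 0.088. The number of the 9 genes called higher by both thresholds was 1, Nr3c1, with a pseudocount of 0.1, and the number called lower ranged from 0 to 1 with 1 library left out. With an FDR under 0.05 alone, 4741 genes were higher and 3807 lower, against 1028 and 995 by both thresholds. With it, the other glucocorticoid-induced genes had 3 lower, the chaperones 11 higher and 4 lower, the coregulators 7 higher and 5 lower, and the glucocorticoid-lowered genes 11 lower. The coregulators called higher numbered 3 with a pseudocount of 0.1 and 1 to 2 with 1 library left out, and the other induced genes called lower 0 to 1. With 1 TPM required in every library, 1 of the glucocorticoid-lowered genes was higher, since Mmp9 was no longer tested. Other causes were not tested.

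The groups share replicate numbers. Deviations of the libraries from their group mean correlated by -0.035 to 0.15 (mean 0.088) for the 4 same-numbered pairs. For the 12 others they correlated by -0.14 to 0.16 (mean -0.029), and 5 of 8 libraries correlated best with their own number. These values do not settle whether the numbers are pairs, and the main fit did not use them as pairs. With the replicate number as a block, 1034 genes were higher and 1000 lower, and of the 9 genes 4 were higher and 2 lower at an FDR under 0.05, as without it. The depth of the libraries is unknown, so low genes such as Klf9, Nr3c1 and Sgk1 carry a counting error that could not be given.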

Other observations

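Some listed genes lay under the minimum of 1 TPM and were not tested, and these were picked out after their values had been seen. Of 53 such genes, 14 had groups that did not overlap, 10 of them higher and 4 lower with LPS + UDCA. Leaving out those at 0 in all libraries, this was 14 of 33 (42.4%), against 12.1% of all 11933 genes under the minimum and above 0 in some library (8.42% higher and 3.68% lower), whose levels were not matched to those of the listed genes. Tgm2, a transglutaminase gene that glucocorticoids raise in macrophages, was at 0.04 to 0.24 TPM with LPS and at 1.29 to 1.39 TPM with LPS + UDCA. Klf15, a Kruppel-like factor gene and a known target of the glucocorticoid receptor in muscle and liver, was at 0.03 to 0.16 TPM and at 0.48 to 0.76 TPM. Per2 was at 0.24 to 0.37 TPM and at 0.89 to 0.98 TPM, while Per3 was at 0.36 to 0.56 TPM and at 0.18 to 0.28 TPM, so the 2 relatives of Per1 lay on opposite sides. Hsd11b2, the enzyme that inactivates glucocorticoids, was at 0.54 to 0.68 TPM with LPS and at 0.08 to 0.36 TPM with LPS + UDCA. The chemokine gene Cxcl1 was listed at 0 in each LPS library, and between 0.27 and 0.65 TPM in those with UDCA. At such levels the depth, which is unknown, limits what can be read from these values.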
